A study of Harpegnathos saltator with 75 samples.

Results

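A set of 54 genes of the ant Harpegnathos saltator was lower in the fat body at day 3 than at day 0 and higher again at day 10, in both castes. They are all the genes that met a rule on measured values, out of 20659 gene models counted in 75 poly(A) RNA-seq libraries. The libraries came from 3 tissues (non-visual brain, fat body and ovary), each with 5 groups of 5 libraries. At day 0 the ants carried the caste label worker, and at day 3 and day 10 they were labelled as gamergates or as workers. No genotype, age, colony or agent other than day and caste is named for these groups, and no label says that the 5 libraries of a group came from separate ants. The p-values below therefore rest on the spread among these libraries, which may be partly technical.

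The insect fat body combines the roles that liver and adipose tissue have in vertebrates. It stores lipid, glycogen and protein, and it secretes most proteins of the haemolymph, including yolk proteins in reproductive females. In Harpegnathos, workers duel after the loss of the reproductive ants in a colony, and some of them become gamergates, workers that lay fertilised eggs.

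Members were chosen on read counts scaled to a total of 1000000 assigned reads per library (CPM, adjusted by the trimmed mean of M-values, TMM, over all 75 libraries), with 5 CPM added to each group mean. The choice was kept to genes whose day 0 levels differed moderately between the tissues (highest over second below 3 and second over lowest below 2 on the log2 scale), whose castes differed by less than 0.8 log2 at day 10 in all 3 tissues, and whose largest day 3 change was in the fat body. The fat body conditions were a log2 change of at most -0.5 from day 0 to day 3, a log2 change above -0.7 from day 0 to day 10, and a difference of at least 0.5 between the later and the earlier change. In turn, the tissue thresholds left 19578 genes, the caste thresholds 17505, the condition on the tissue of the largest change 4620, the fall 507, the day 10 level 340 and the rise 54. A limit of 80 members was not reached. The mirrored rule, a fat body peak at day 3, was met by 81 genes. The dip, the recovery, the day 10 caste difference and the bounded brain and ovary changes at day 3 are therefore properties of the choice, and they are described here without a test.

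The deposited identifiers matched none of the gene IDs in the RefSeq gene table of the species, and the count table holds no gene names, lengths or positions. The members are named by identifier only, and no function or position is given for them. Levels were not corrected for gene length, so a ranking of members by CPM is a ranking of reads counted. In 4 pairs of members the identifier numbers were no more than 2 apart. Whether those are neighbouring or duplicated genes was not tested, and overlapping genes or near-identical copies that share reads cannot be recognised.

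The fat body libraries held 880082 to 4467790 assigned reads (median 1611587), the brain libraries 488892 to 2921261 and the ovary libraries 737818 to 4677916. The genes on a list of fat body-enriched ones, made from the day 0 libraries, took 37.6 to 70.4% of the reads of each fat body library, while brain-enriched genes took 0.0696 to 0.540% and ovary-enriched genes 0.0325 to 0.145%. Codes in the sample descriptions place all day 3 libraries on one flow cell and all day 10 libraries on another. At day 3 and at day 10 the workers were in lane 1 and the gamergates in lane 2, while day 0 libraries were in both lanes. The day 0 libraries numbered 1, 2 and 5 were on the flow cell of day 3 and those numbered 3 and 4 on that of day 10. In the fat body the gamergate libraries numbered 5 stood apart in the share of reads outside annotated genes, at 36.3% against 26.8 to 27.9% at day 3 and 33.0% against 20.7 to 22.1% at day 10. The day 3 worker libraries numbered 4 and 5 also stood apart, at 35.4 and 35.9% against 28.8 to 31.0%.

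The dip was present in every day 3 fat body library. Relative to the day 0 mean, on the log2(CPM + 5) scale, the median member stood at -0.13 to 0.12 in the 5 day 0 libraries. It stood at -1.12 to -0.90 in the 5 day 3 gamergate libraries and at -1.05 to -0.67 in the 5 day 3 worker libraries. At day 10 it stood at -0.42 to -0.16 in gamergates and at -0.36 to 0.18 in workers. No day 3 library overlapped a library of another day on this median. The median of 6339 genes not chosen for a dip, called broadly expressed here, stayed between -0.18 and 0.06 in all 25 libraries. They passed the rule's tissue and caste thresholds with a fat body mean of at least 5 CPM, and include the members that reach this mean. Because the rule chose the members on these same libraries, a low day 3 median follows in part from the choice, and nothing is read from the contrast. In each day 3 library 48 to 54 of the 54 members were below their day 0 mean, and 11 to 32 were more than 1 log2 unit below it. Without the libraries numbered 5, the day 3 medians spanned the same range in gamergates, and the lowest worker median became -0.90. That value belongs to worker library 4, which also stood apart in reads outside annotated genes. The day 3 worker libraries numbered 1, 2 and 3 were at -0.76, -0.67 and -0.79.

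**Figure D1:**
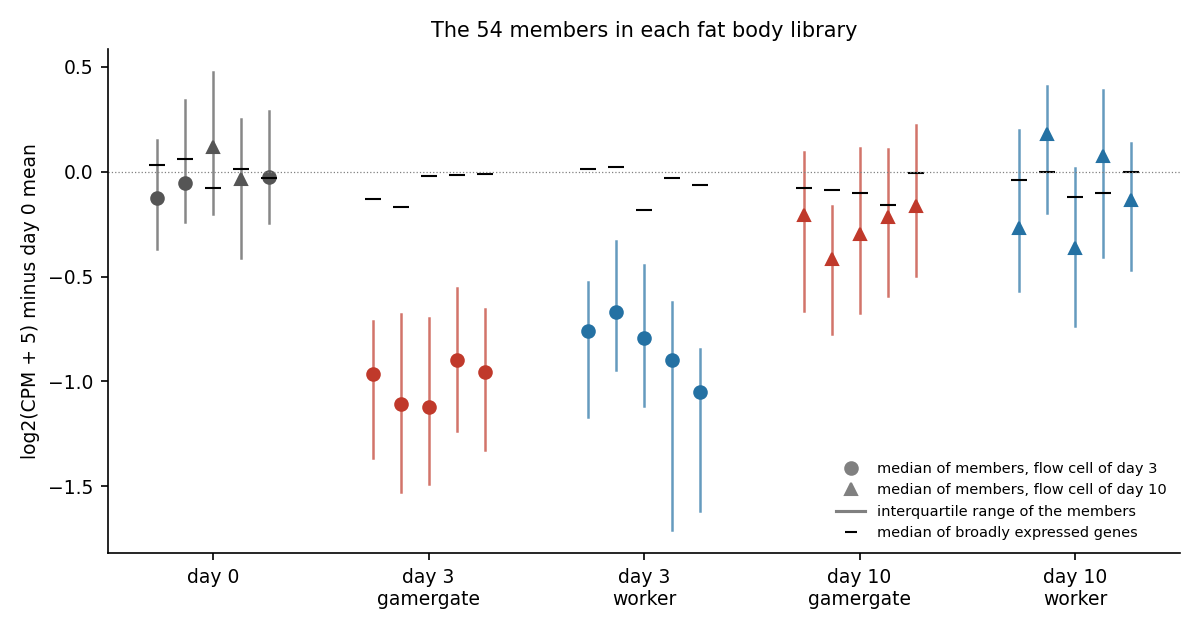
Median of the 54 members in each of the 25 fat body libraries, as log2(CPM + 5) minus the day 0 mean, with the interquartile range of the members as a vertical line, circles and triangles for the flow cells, and a black tick for the median of 6339 broadly expressed genes. The 10 day 3 libraries lie between -1.12 and -0.67, below every day 0 and day 10 library.

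The members together took 0.399 to 0.568% of the assigned reads at day 0 and 0.172 to 0.298% at day 3. At day 10 they took 0.283, 0.264, 0.263, 0.290 and 0.475% in the gamergate libraries, 4 of which lay within the day 3 range, and 0.357 to 0.659% in the workers, all above it. A lower share in bulk tissue can come from fewer cells of a type or from less RNA per cell, and these cannot be told apart here. The most abundant single gene of a library took 12.8 to 18.2% of the reads at day 0 and 11.9 to 34.5% at day 3. At day 10 it took 43.4 to 44.5% in the 4 gamergate libraries whose member share lay within the day 3 range. It took 12.7% in the gamergate library numbered 5 and 8.45 to 14.7% in the workers. The part of this gene in the member shares and in the result was not tested. Without scaling factors, which leaves such genes their full weight, all 54 members still lay below day 0 at day 3 and above day 3 at day 10, although 16 of them met every threshold of the rule. The median member's day 3 change was then -0.76 in place of -0.94.

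Averaged over castes, the day 3 change of the members had a median of -0.94 on the log2 scale and ranged from -2.23 to -0.51. The change from day 0 to day 10 had a median of -0.17 (-0.61 to 1.17), and 12 of the 54 members ended above their day 0 level. In plain CPM the median member was at 43.0% of its day 0 level at day 3 (13.6 to 65.7%) and at 85.5% at day 10 (61.8 to 264%). At day 10, 42 members were still below their day 0 level on the log2(CPM + 5) scale. For 25 members the log2 change at day 3 was below -1, and for 16 it was below -1 in both castes.

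Among members with at least 20 CPM at day 0, the deepest falls belonged to HSALG011218.2 and HSALG010691.1. HSALG011218.2 was at 291, 213, 235.4, 297 and 354 CPM in the day 0 fat body libraries. At day 3 it was at 112.5, 17.7, 72.3, 84.3 and 88.2 CPM in gamergates and at 34.3, 54.4, 33.1, 26.5 and 31.4 CPM in workers. At day 10 it was at 188.5, 158, 149.5, 227 and 297 CPM in gamergates and at 183, 352, 107, 338 and 246 CPM in workers. All 10 day 3 libraries were below all 5 day 0 libraries, and 1 gamergate library at day 3 exceeded the lowest worker library at day 10. Its mean was 278 ± 55.6 CPM at day 0 and 35.9 ± 10.7 CPM in day 3 workers (SD, n = 5), with the gamergate mean of that day in between. The fitted log2 change from day 0, castes averaged, was -2.41 (SE 0.27). It was also the member with the largest rise to day 10 among those with at least 20 CPM at day 0, a fitted log2 change of 2.10 (SE 0.24).

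HSALG010691.1 stood at 103, 84.4, 148, 46.6 and 64.6 CPM at day 0. Its day 3 libraries ranged from 9.54 to 31.7 CPM in gamergates and from 4.09 to 35.2 CPM in workers, all below the day 0 libraries. Its day 10 libraries ranged from 29.3 to 84.4 CPM in gamergates and from 47.7 to 96.1 CPM in workers. The worker libraries of the 2 later days did not overlap, while the gamergate libraries did. The group means were 89.3 ± 38.9 CPM at day 0 (SD, n = 5), 17.6 ± 8.43 and 17.5 ± 11.7 at day 3 in gamergates and workers, and 55.6 ± 24.0 and 64.6 ± 19.0 at day 10.

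HSALG001561.2 had the next largest rise from day 3 to day 10 among members with at least 20 CPM at day 0, on the scale of the rule (log2 of group mean CPM + 5, 1.65 against 1.93 for HSALG011218.2), and it ended above its day 0 level. Its libraries were at 203, 164, 215, 304.5 and 222 CPM at day 0. They ranged from 56.1 to 167 CPM in gamergates and from 59.5 to 130 CPM in workers at day 3. At day 10 the gamergate libraries were at 361, 229, 324, 696 and 273 CPM and the worker libraries at 117, 407, 172, 365 and 398 CPM. The day 10 libraries spread widely, since 1 gamergate library stood far above the others and 1 worker library lay within the day 3 range.

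HSALG003331.2 and HSALG003296.2 had the highest fat body level at day 0 among the members, so counting error weighs least on them. HSALG003331.2 was at 1109, 1264, 1623, 1480.0 and 1281 CPM at day 0. At day 3 it was at 492.8 to 950 CPM in gamergates and at 431 to 802 CPM in workers, and at day 10 at 812 to 1161 and 562 to 1629 CPM. Every day 3 library was below every day 0 library, and both castes overlapped between day 3 and day 10. HSALG003296.2 fell from 1120 ± 185 CPM at day 0 (SD, n = 5; 925 to 1413) to 359 ± 201 in gamergates (152 to 683) and 213 ± 140 in workers (79.1 to 425) at day 3. At day 10 it was at 741 ± 130 and 726 ± 216 CPM. The fitted log2 change from day 0 to day 3 was -1.04 (SE 0.19) for HSALG003331.2 and -2.02 (SE 0.29) for HSALG003296.2.

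**Figure D2:**
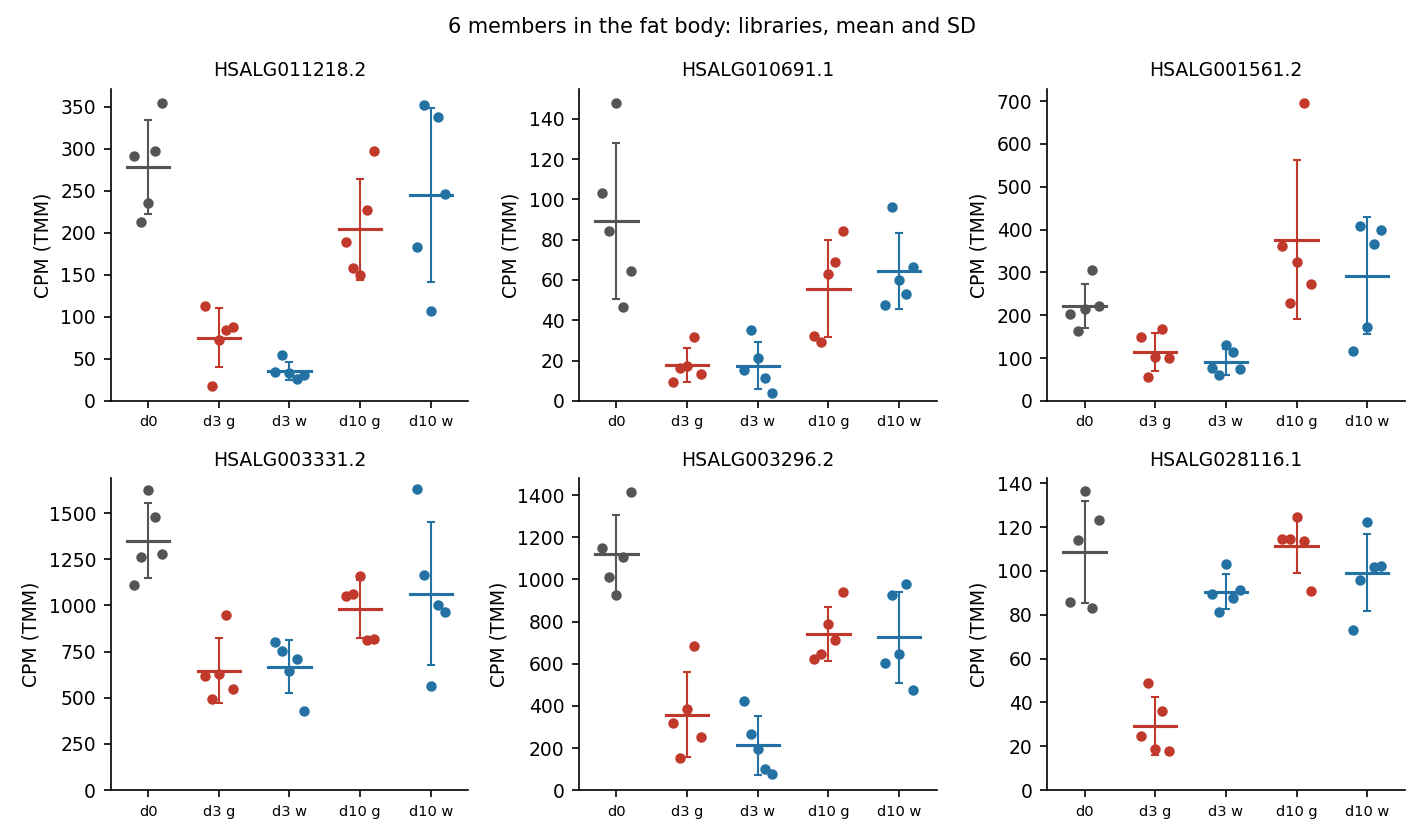
CPM in each fat body library for the 5 members named above and for HSALG028116.1, with the mean and SD of each group of 5 (d0, d3 and d10 are the days, g gamergates and w workers). For the first 5 genes every day 3 point lies below the lowest day 0 point, except for 1 gamergate point of HSALG001561.2; HSALG028116.1 is low at day 3 in gamergates, at 17.7 to 48.7 CPM.

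The members just inside and just outside the thresholds were close to each other. The smallest difference between the later and the earlier change was 0.503 among the members, and the nearest gene outside was at 0.498. The nearest day 3 changes were -0.51 inside and -0.49 outside, and the nearest day 10 changes -0.61 and -0.74. With group medians in place of means 28 of the 54 members met every threshold, 35 did with TMM scaling within each tissue, and 16 did without scaling factors, so a share of the set rests on the exact settings.

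Depth varied widely among the members. Their day 0 mean in the fat body ran from 4.00 to 1351 CPM with a median of 44.2, and 27 of the 54 had fewer than 50 reads per library on average at day 0. The member with the largest rise, HSALG009852.2, was picked out after its values were seen, because a few libraries carried it. At day 0 it was at 80.0 CPM in library 3 and at 0 to 0.777 CPM in the other 4. At day 10 it was at 179 and 95.9 CPM in 2 gamergate libraries and at 145 CPM in 1 worker library, and at 0 to 5.44 CPM in the other 7. It was at 0 to 13.4 CPM in the 10 day 3 libraries, which overlap both other days.

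Judged library by library, 15 of the 54 members had all 10 day 3 libraries below all 5 day 0 libraries. Among 8565 genes with a fat body mean of at least 5 CPM, 1.75% did. Full separation of day 3 from day 10 was rarer, since all 10 day 3 libraries lay below all 10 day 10 libraries for 1 member, HSALG011707.2, and for 0.035% of those genes. The rule chose on these same libraries, so nothing is read from these counts. For the members outside the 15 separated from day 0, at least 1 day 3 library reached the day 0 range.

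After the group means were removed, the correlation of pairs of members over the 25 fat body libraries had a median of 0.0727, against 0.0334 for 6339 broadly expressed genes, and 3.77% of the member pairs exceeded 0.5. These values are descriptive, and the points share library depth. Of the 4 pairs with close identifier numbers, HSALG001670.2 and HSALG001672.2 had the value 0.882, HSALG003295.2 and HSALG003296.2 had 0.702, and HSALG004277.2 and HSALG004278.2 had 0.598. HSALG003329.2 and HSALG003331.2 had -0.268.

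In edgeR's quasi-likelihood fit over all 25 fat body libraries, 50 of the 54 members passed the filter on low counts, and 4 were not tested. Of these 50, 36 were called lower at day 3 than at day 0 at an adjusted p below 0.05 (Benjamini-Hochberg over 7941 genes), where 7.66% of all genes tested were called lower. From day 3 to day 10, 29 were called higher, against 2.3% of all genes. From day 0 to day 10, 2 were called lower, against 6.65% of all genes. The rule used all 3 contrasts, and the counts are given only to show how many members had a spread small enough to be called. The median member had a biological coefficient of variation of 0.362, against 0.244 for all genes tested.

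The day 3 libraries were all on one flow cell, so the dip was also taken within it. Against the 3 day 0 libraries on the flow cell of day 3, the fitted log2 change at day 3 had a median of -1.02 and was negative for 48 of 50 members, against a median of -0.01 for all genes tested. Of the members 24 were called lower, where 4.24% of all genes were. The rule chose the fall on these same day 3 libraries and on all day 0 libraries, these 3 included, so the counts describe the choice and nothing is read from them. The change from day 0 to day 10, taken within the flow cell of day 10, had a median of -0.24 against -0.25 over all day 0 libraries. With flow cell as a term, the rise from day 3 to day 10 had a median of 0.74 in place of 0.96 and was positive for 43 of 50 members, and none was called, where 0.0252% of all genes were called higher.

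The day 0 libraries also allow a direct comparison of the flow cells at one time. The rule used the mean of these 5 libraries and not the difference between the flow cells. A member carried by 1 high day 0 library could still pass, so these counts are not free of the choice and are given as a description. Members were called in neither direction between the 3 day 0 fat body libraries on the flow cell of day 3 and the 2 on that of day 10, where 0.0504% of all genes tested were called. At an unadjusted p below 0.05 there were 7 of 50 members, against 8.77% of all genes. The fitted log2 difference had a median of -0.13 over the members (quartiles -0.58 and 0.17), with 31 of 50 negative, against a median of -0.01 for all genes. The count was 1 without the day 0 library numbered 4 and 0 with DESeq2.

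**Figure D3:**
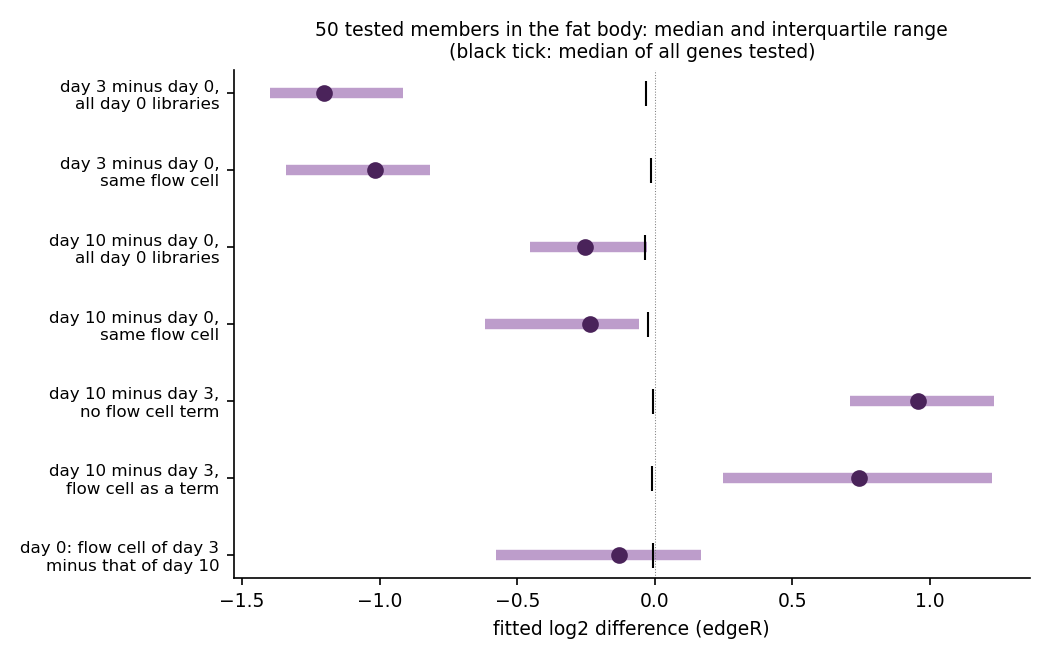
Fitted log2 difference in the fat body for the 50 members tested (median as a point, interquartile range as a line) and for all 7941 genes (black tick), by comparison. The day 3 change has a median of -1.20 over all day 0 libraries and of -1.02 within the flow cell, and the difference between flow cells at day 0 has a median of -0.13.

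The median member dipped in both castes. The rule used the average of the castes at day 3 and not their difference. A gene low in 1 caste alone could still pass, so calls between castes at day 3 are not free of the choice. Of the 50 members tested, 1 was lower in gamergates than in workers at day 3 and none was higher, in edgeR's quasi-likelihood test adjusted over 7941 genes, where 0.0504% of all genes tested were called and all of those were lower in gamergates. At an unadjusted p below 0.05 there were 6 of 50 members, against 6.40% of all genes. The median log2 difference between castes was -0.08, with 32 of 50 members lower in gamergates, against a median of -0.03 for all genes. Each caste alone had a lower mean at day 3 than at day 0 for all 54 members, which partly follows from the choice on their average. On the log2(CPM + 5) scale the change had a median of -1.02 in gamergates and of -0.89 in workers. The smallest falls were -0.17 in gamergates and -0.25 in workers. On the same scale the rise from day 3 to day 10 had a median of 0.77 in each caste. That rise ran from 0.007 to 3.49 in gamergates and from 0.028 to 2.61 in workers.

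The member called was HSALG028116.1. It was at 86.0, 114, 136, 83.1 and 123 CPM in the day 0 fat body libraries. At day 3 it was at 24.8, 48.7, 18.9, 36.1 and 17.7 CPM in gamergates and at 89.3, 81.2, 103, 87.7 and 91.3 CPM in workers. The day 10 libraries were at 90.7 to 125 CPM in gamergates and at 73.2 to 122 CPM in workers. The day 3 gamergate libraries were all below every other fat body library of this gene, and 4 of the 5 day 3 worker libraries lay within the range of day 0. Its means were 108.5 CPM at day 0, 29.2 CPM in day 3 gamergates and 90.6 CPM in day 3 workers. It thus met the rule's fall through the gamergates, and its caste difference at day 3 is given as a description.

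The caste difference of HSALG028116.1 at day 3 was -1.63 on the log2 scale (SE 0.24), lower in 5 of 5 gamergate libraries. The gene met the rule through these same libraries, so no p-value is given for this difference. Between day 3 and day 10 the caste difference changed by 1.83 (SE 0.32), a comparison in which 0.164% of all genes tested and 1 of 50 members were called. The rule bounded the day 10 caste difference, so this change is a description and no test is read from it. No day 3 lane held both castes, so caste and lane cannot be told apart within day 3. With flow cell and lane as a term, which leans on single day 0 libraries in 3 of the 4 lanes, the day 3 difference was -1.70 (SE 0.46) and the change 2.72. The day 3 difference was not called with that term or in a fit of the day 3 libraries alone. It was called in DESeq2's Wald test.

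HSALG011218.2, the member with the deepest dip, leaned the other way. Of its day 3 libraries, listed above, 4 of 5 gamergate ones were above all workers and 1 was below all workers. The log2 difference of 1.05 (SE 0.34) did not pass the test (edgeR adjusted p = 0.573). HSALG003296.2 was at 0.75 (SE 0.35, adjusted p = 0.77), and the other 3 members named above for the dip were between -0.05 and 0.32. In simulated counts with the size and spread of these libraries, 200 of 7941 genes, drawn from all genes, were changed. There 45% of 2-fold and 91% of 4-fold changes were recovered for this comparison. In the data 0.0504% of genes were called, which makes the adjusted threshold stricter. The members also varied more than all genes (median biological coefficient of variation 0.362 against 0.244). Recovery for the members may therefore be lower, and was not simulated.

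**Figure D4:**
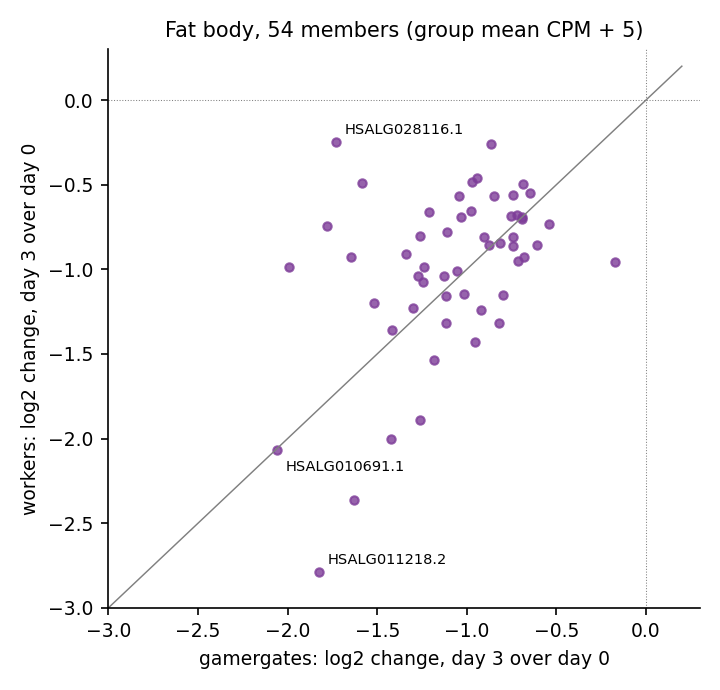
Log2 change from day 0 to day 3 in the fat body in gamergates (horizontal) and in workers (vertical), 1 point for each of the 54 members, from group means of CPM + 5, with equal changes on the diagonal. All points lie below 0 on both axes, by the choice on their average in part, and HSALG028116.1 is the point near -1.73 in gamergates and -0.25 in workers.

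In the brain and the ovary the median member stayed near its day 0 level. The median over members ranged from -0.04 to 0.18 in the 10 brain libraries and from -0.12 to 0.01 in the 10 ovary libraries of day 3, on the log2(CPM + 5) scale against the day 0 mean of the tissue. The day 10 range was -0.03 to 0.26 in the brain and -0.01 to 0.23 in the ovary. Single members moved in both directions. In the ovary, 8 of the 41 members tested were called higher at day 3 than at day 0 and 8 lower (edgeR). Of all 9150 genes tested, 952 were called higher and 985 lower. HSALG011218.2 and HSALG010691.1 were among the members called lower, at log2 changes of -0.63 and -0.94. From day 3 to day 10 these 2 genes rose by 0.65 and 0.81 in the ovary. The rule bounded the size of the day 3 changes in these tissues by that in the fat body, so nothing is read from these counts. At day 0 the highest level among the 3 tissues was in the fat body for 35 members, in the brain for 11 and in the ovary for 8. Among the lists of tissue-enriched genes, 3 members were on the fat body list of 373 genes, 1 on the brain list of 715 and none on the ovary list of 165.

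**Figure D5:**
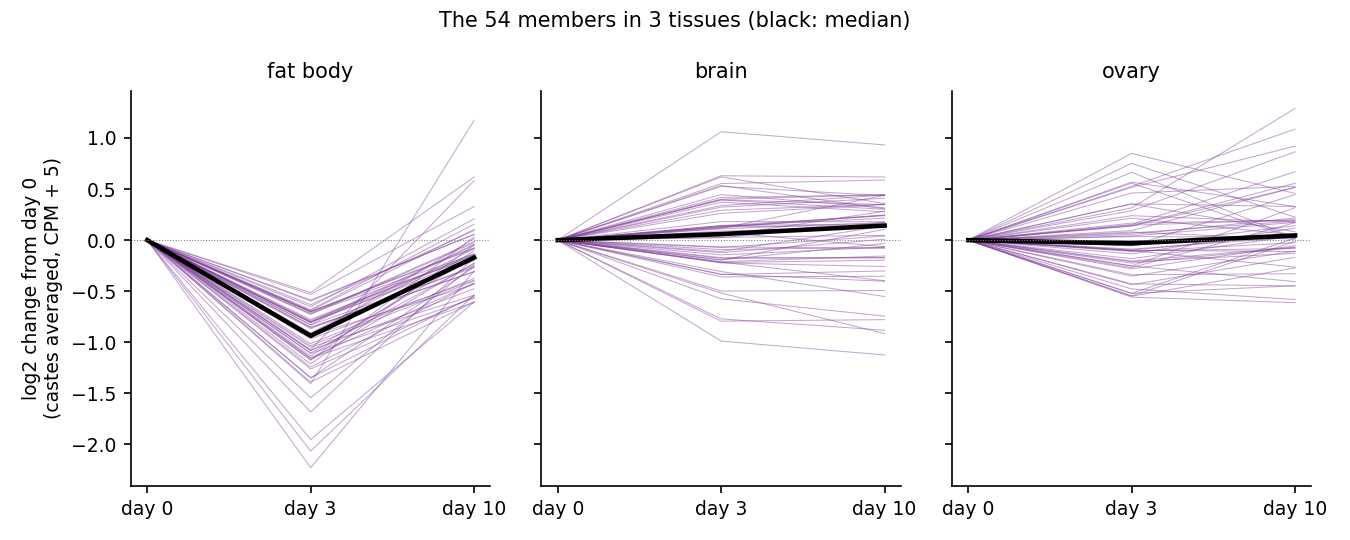
Log2 change from day 0 for each of the 54 members (thin lines) and their median (black), castes averaged, from group means of CPM + 5, in brain, fat body and ovary. The fat body median is -0.94 at day 3 and -0.17 at day 10, and single members move in both directions in the brain and the ovary.

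The rule did not use the change from day 0 to day 10 outside the fat body. It did bound the day 3 change from the same day 0 libraries, and the caste difference at day 10. The members' calls and shares in brain and ovary are therefore not free of the choice, and are given as a description. In the brain 3 of the 46 members tested rose from day 0 to day 10 and 5 fell (edgeR, adjusted over 9886 genes), where 10.2% of all genes tested rose and 14.5% fell. Together this is 17.4% of the members, against 24.7% of all genes. The same members were called from day 0 to day 3. The median log2 change was 0.10 over the members and -0.02 over all genes. HSALG002147.2 rose from 15.7 ± 7.97 CPM at day 0 (SD, n = 5; 2.62 to 23.7) to 40.7 ± 16.8 in day 10 gamergates and 28.2 ± 11.3 in day 10 workers, a log2 change of 1.05 (SE 0.32, edgeR adjusted p = 0.0213). The day 0 and day 10 libraries of HSALG002147.2 overlapped in the brain. Its call held in 5 of 8 alternative settings and in 14 of the 15 fits with 1 library left out, and without day 0 library 5 the log2 change was 0.77 (edgeR adjusted p = 0.0579). HSALG006969.1 rose from 168 ± 26.9 CPM to 263 ± 26.6 and 258 ± 57.1 (SD, n = 5), a log2 change of 0.59 (SE 0.15, edgeR adjusted p = 0.0102), with 9 of 10 day 10 libraries above all 5 day 0 libraries.

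The brain members with the largest falls were HSALG023598.1 and HSALG011821.2. HSALG023598.1 was at 9.79, 12.6, 16.6, 18.0 and 37.7 CPM at day 0 and at 2.87 to 11.2 CPM in the 10 day 10 libraries, a log2 change of -1.33 (SE 0.27, edgeR adjusted p = 0.00264). HSALG011821.2 was at 201, 174, 192, 229 and 574 CPM at day 0 and at 111 to 146 CPM at day 10, with no overlap, a log2 change of -1.20 (SE 0.21, edgeR adjusted p = 0.00108). Both had their highest day 0 level in library 5. In that brain library 67.7% of the reads were in no gene, against 57.1 to 58.0% in the other 4, and 8 members were more than 1 log2 unit below the day 0 mean, against 0. The part of these differences in the brain results was not tested. Without every library numbered 5 their changes were -0.93 and -0.77, both still called. HSALG011218.2, whose fat body dip was the deepest, was at 62.0, 67.7, 62.2, 64.2 and 105.3 CPM in the day 0 brain, again highest in library 5, and at 41.7 ± 5.58 and 40.6 ± 5.29 CPM in day 10 gamergates and workers (SD, n = 5), a log2 change of -0.85 (SE 0.17, edgeR adjusted p = 0.00217).

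The brain calls did not hold in fits that account for the flow cell. With flow cell as a term, or against the 2 day 0 libraries of the same flow cell, so on fewer day 0 libraries, 0 of the 46 members and 0.273% of all genes were called, with 10 members at an unadjusted p below 0.05 and a median of 0.13. The log2 changes of the 4 genes were then 0.93, 0.44, -1.16 and -0.79, in the order given. Without every library numbered 5 the count was 19 of the members.

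In the ovary 9 of the 41 members tested rose from day 0 to day 10 and 6 fell (edgeR, adjusted over 9150 genes), where 13.2% of all genes tested rose and 16.4% fell. Together this is 36.6% of the members, against 29.7% of all genes. As in the brain, the rule bounded the day 3 change from the same day 0 libraries, so nothing is read from these shares. The median log2 change was 0.09 over the members and -0.01 over all genes. HSALG006239.2 was at 4.58, 4.65, 5.36, 4.06 and 5.70 CPM in the day 0 ovaries, at 30.9, 28.4, 27.0, 25.7 and 8.80 CPM in day 10 gamergates and at 21.6, 22.9, 17.7, 5.00 and 3.10 CPM in day 10 workers. All 5 gamergate libraries lay above day 0, and 2 of the 5 worker libraries overlapped it. The log2 change was 1.95 (SE 0.47, edgeR adjusted p = 0.00509). HSALG005426.2 rose from 8.28 ± 1.53 CPM (SD, n = 5) to 22.0 ± 2.58 in gamergates and 18.2 ± 3.28 in workers with no overlap, a log2 change of 1.29 (SE 0.21, edgeR adjusted p = 0.000307).

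The ovary members with the largest falls were HSALG012115.1 and HSALG009494.2. HSALG012115.1 fell from 35.0 ± 2.34 CPM (SD, n = 5; 32.2 to 37.6) to 26.2 ± 5.47 in gamergates and 17.2 ± 5.53 in workers, a log2 change of -0.70 (SE 0.18, edgeR adjusted p = 0.00699). A single one of its day 10 gamergate libraries reached the day 0 range. HSALG009494.2 was at 45.2 to 62.9 CPM at day 0, at 22.3, 19.9, 27.5, 21.1 and 57.7 CPM in day 10 gamergates and at 24.4 to 47.3 CPM in day 10 workers, a log2 change of -0.67 (SE 0.24, edgeR adjusted p = 0.0387). That call held in 6 of 8 alternative settings and in 5 of the 15 fits with 1 library left out. Within the flow cell of day 10, 3 members were called in the ovary, where 4.94% of all genes were, and of the 4 genes named HSALG005426.2 kept its call.

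The caste difference at day 3 gave no calls among the members in the other tissues. In the brain 0 of 46 members and 0% of 9886 genes were called by edgeR, with 1 member at an unadjusted p below 0.05, and 0 members by DESeq2. In the ovary 0 of 41 members and 0% of 9150 genes were called by edgeR, with 1 member at an unadjusted p below 0.05, and 0 members by DESeq2. The median log2 difference was 0.04 in the brain and -0.01 in the ovary. HSALG028116.1, the member with the fat body call, had log2 differences of -0.28 (SE 0.32) in the brain and -0.24 (SE 0.21) in the ovary at day 3.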

How the data were processed

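Poly(A) RNA from brain, fat body and ovary was extracted with Trizol and sequenced on an Illumina HiSeq from NEBNext Ultra II libraries, per the labels' protocols. The deposited values are read counts per gene. Trimmomatic, STAR 2.5.3a and HTSeq are named in the submitters' processing notes. Not given in the sources used here were a build, an annotation and the strand setting. All 5 summary rows of the count table, which name no gene, were left out of library sizes and tests; of the reads in a fat body library, 20.7 to 36.7% were in no gene, 6.99 to 16.6% mapped to several places and 0.696 to 2.41% were ambiguous.

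The counts were scaled by TMM over all 75 libraries for the rule and for the CPM printed. The members, the tissue-enriched lists (in edgeR, more than 3 log2 units above each of the other tissues at day 0, called at 0.05, and at least 10 CPM) and the tests were chosen with earlier results of these data known. Tests used edgeR 4.0.16 in R 4.3.3 (quasi-likelihood, robust dispersion, filterByExpr with a minimum count of 10, TMM within the tissue, 1 coefficient per group, all 25 libraries of a tissue), with Benjamini-Hochberg adjustment over all genes tested and a threshold of 0.05. The fits were tested on simulated data. The Wald test of DESeq2 1.42.0 was an alternative. Other alternatives were DESeq2's size factors, no filter, a replicate block, flow cell and lane terms, day 0 libraries of the same flow cell, fits of the groups compared alone, and leaving out libraries. Named members were the 2 with the lowest day 3 change and the 2 with the largest rise to day 10 among those with at least 20 CPM at day 0, the 2 with the highest day 0 mean, and, per tested comparison and direction, at most 2 called members with the largest log2 change; exceptions are stated. No 2 libraries of a group agreed within sampling noise (chi-square per degree of freedom at least 1.23).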

Additional observations from a re-analysis of the deposited data

Results flagged for a closer look

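The caste difference of HSALG028116.1 in the fat body changed by 1.83 on the log2 scale between day 3 and day 10. The rule bounded the day 10 part of this value, so it is given with no test read from it. Dixon's criterion (critical value 0.71) was applied to 69 groups of 5 libraries. They were groups of the named members and the 15 groups of the median over members. In 5 groups, all of named members, 1 library stood apart from the other 4, which chance gives in about 1 of 20 groups. HSALG001561.2 was at 696 CPM in the day 10 gamergate fat body library 4, against 229 to 361 CPM in the others. HSALG011218.2 was at 54.4 CPM in the day 3 worker fat body library 2, against 26.5 to 34.3 CPM. In the day 10 gamergate ovary, library 5 held the lowest value of HSALG006239.2, 8.80 CPM against 25.7 to 30.9, and the highest of HSALG009494.2, 57.7 CPM against 19.9 to 27.5. HSALG011821.2 was at 574 CPM in the day 0 brain library 5, against 174 to 229 CPM.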

How the results depend on the processing

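No log2 change of the called genes named for castes at day 3 or for day 10 against day 0 turned direction under any alternative run. The medians near 0 of the brain and the ovary from day 0 to day 3, and of the fat body castes at day 10, changed sign under the settings given here. Of the 54 members, 35 met every threshold with TMM within each tissue, 16 without scaling factors, 28 with group medians, 34 without every library numbered 5, and 44 to 54 with 1 fat body library left out. With flow cell as a term, and equally with day 0 libraries of the same flow cell only, the median day 3 change in the fat body was -1.02 (-1.20 over all), calls from day 0 to day 10 were 0 in the brain (8) and 3 in the ovary (15), and the brain median from day 0 to day 3 was -0.058 (0.02); the median rise to day 10 in the fat body was 0.74 (0.96) with the term. With flow cell and lane as a term the fat body had 0 calls (1) for castes at day 3 and 0 (1) for the change of that difference, and the day 10 caste median was 0.0136 (-0.18). A fit of the groups compared alone gave 0 calls for castes at day 3. Without every library numbered 5 the brain had 19 calls from day 0 to day 10 and a day 3 median of -0.061, and the change of the caste difference had 0 calls. Without a filter the ovary median from day 0 to day 3 was -0.12 (0.05). The cause of these shifts was not tested. With 1 library left out, brain calls from day 0 to day 10 ran from 7 to 17, ovary calls from 10 to 17, the fat body day 3 median from -1.22 to -1.05, the ovary day 3 median from -0.00330 to 0.0690, and fat body calls between flow cells at day 0 from 0 to 1. Whether replicate numbers pair the libraries was not settled. In no tissue were all 5 correlations of same-numbered libraries above 0.1, but 4 were in some comparisons, such as ovaries of day 3 and day 10 workers. These correlations were not set against differently numbered libraries or taken across tissues. With the replicate block the counts of calls were 1 for castes at day 3 and 1 for its change in the fat body, 12 in the brain and 15 in the ovary from day 0 to day 10. Of the members, 27 had fewer than 50 reads per library at day 0, which limits their precision.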
